A study of Homo sapiens with 18 samples.

Results

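The 10 genes described here control how cells pass through the G1 phase of the cell cycle: the CIP/KIP inhibitors CDKN1A, CDKN1B and CDKN1C, the INK4 inhibitors CDKN2C and CDKN2D, the F-box protein gene SKP2, the D-type cyclin genes CCND2 and CCND3, and the kinase genes CDK4 and CDK6. They were taken by name from a table of 13358 genes, and all 10 were found in it, 9 by symbol and CDK6 by its Ensembl identifier because the table lists it with no symbol. Their levels were read in all 18 RNA-seq libraries of the study.

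The cells were HUDEP1, an immortalised human erythroid progenitor line, and poly(A) RNA was sequenced from 3 clones. Clones 1D5 and 1KI9 express GATA1s, the short isoform of the erythroid transcription factor GATA1 that lacks its N-terminal part, and clone FL expresses the full-length protein (GATA1FL). Each clone was sampled at day 4 in differentiation medium and in expansion medium, with 3 libraries in each of the 6 groups. Each line is 1 clone, so the full-length genotype is a single clone and genotype cannot be told apart from clone. The differentiation medium was IMDM with 2% FBS, 3% human AB serum, 10 µg/mL insulin, 3 U/mL heparin and 1 mg/mL holo-transferrin. The expansion medium was SFEM II with 1 µM dexamethasone. Every group received 3 U/mL EPO (erythropoietin), 50 ng/mL SCF (stem cell factor) and 1 µg/mL doxycycline.

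In G1, D-type cyclins activate CDK4 and CDK6, which phosphorylate the retinoblastoma protein and release E2F factors for entry into S phase. INK4 proteins bind CDK4 and CDK6 directly and keep the cyclin away, whereas CIP/KIP proteins bind cyclin and kinase together and chiefly restrain CDK2. Red cell precursors pair their last divisions with hemoglobin synthesis and then leave the cycle, and CDK inhibitors accumulate as they do so.

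Expansion levels are given in TPM, a level per transcript length that sums to a fixed total over all transcripts. Day-4 levels are on a TPM-like scale whose library sums ran from 814583 to 1081251, against 943734 to 950736 in expansion, so the conditions were scaled separately in the deposited table. The day-4 sums also parted by clone, at 874292 to 945379 in 1D5 and 814583 to 857123 in 1KI9, against 1045885 to 1081251 in FL. Day-4 differences between clones therefore cannot be told apart from this difference in library sum, and other scalings are given below. Expansion values are per length. The sources used here do not give the day-4 scaling, but across 7229 to 8085 genes with means of at least 5 in both conditions the log2 ratio of day 4 to expansion had a slope on log2 transcript length of 0.022 in 1D5, -0.0042 in 1KI9 and -0.0070 in FL, near the 0 of a shared dependence on length. Comparisons between genes at day 4 rest on that. Read depth is unknown. Globin genes took 19.3% to 20.6% of the signal in 1D5, 12.4% to 13.3% in 1KI9 and 38.2% to 39.4% in FL at day 4, and 4.03% to 10.63% in expansion. All 8 erythroid markers averaged at least 1 in every group. Levels of the GATA1 gene cannot tell the short from the full-length form, so they do not check the genotype labels. The labels do not state that replicate libraries are separate cultures. Each p-value here therefore weighs a difference against library-to-library spread, which may be technical.

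Differences between groups were tested with limma on log2(level + 1), a scale that understates changes of low genes, and each is given as a log2 difference with its standard error (SE). A gene was called at a Benjamini-Hochberg adjusted p under 0.05 over all genes tested. Members numbered 9 among the genes tested, since CDK6 fell below the filter on low values.

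**Figure D1:**
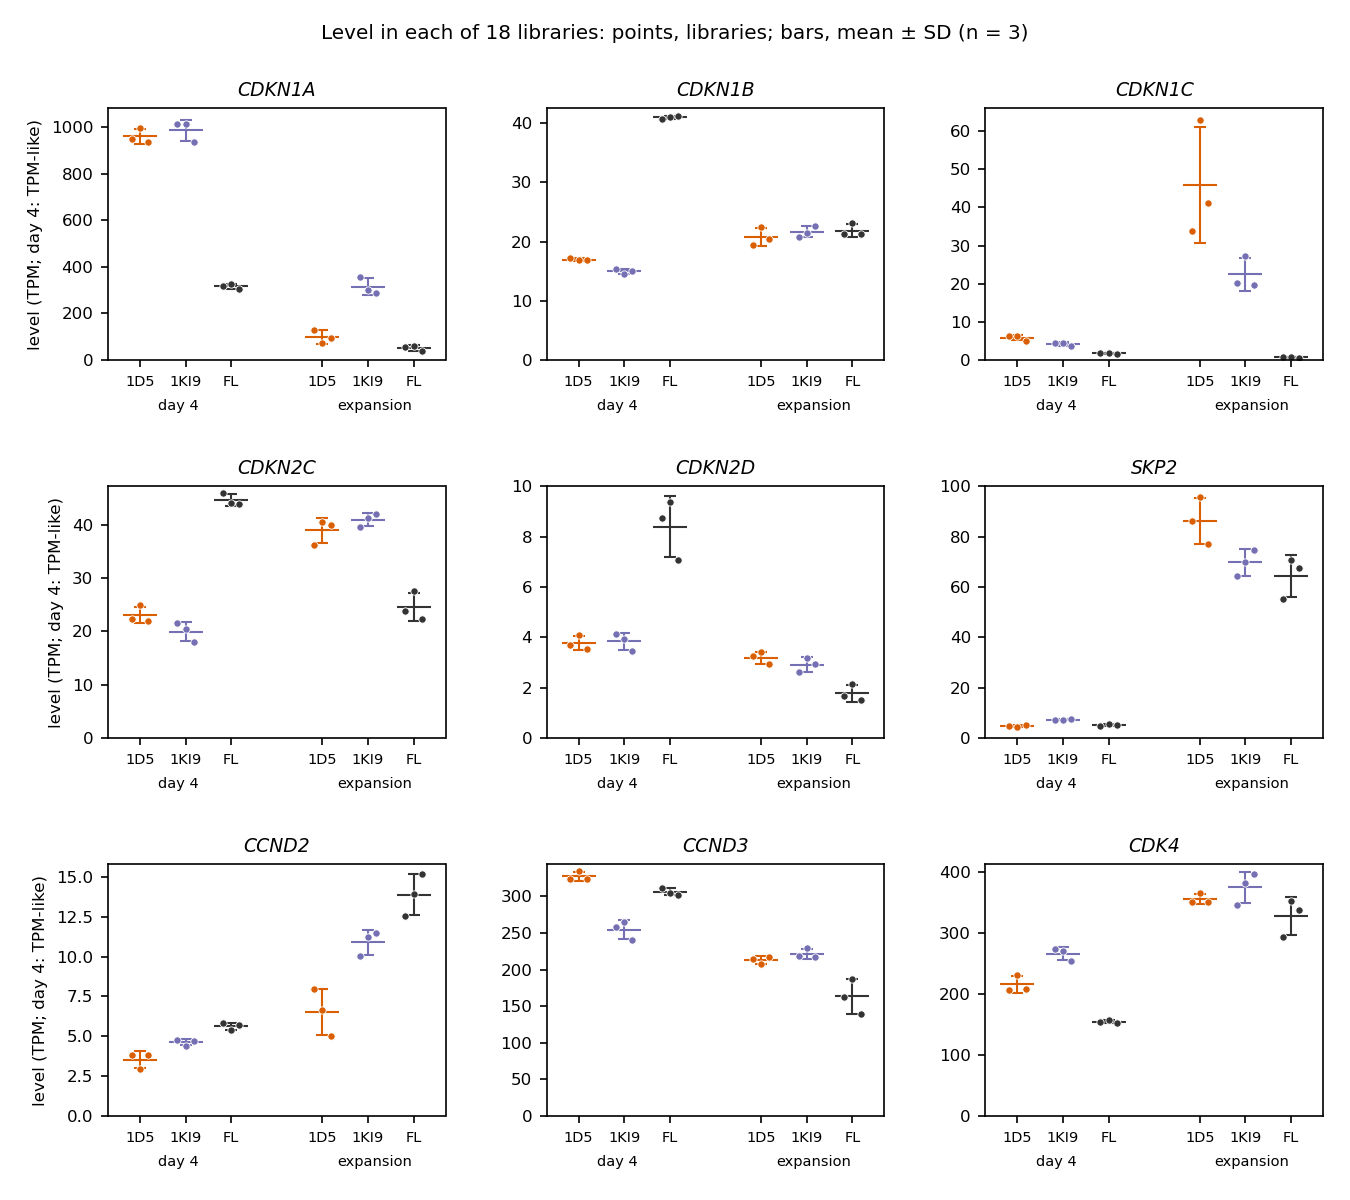
Level of 9 members in each of the 18 libraries, in TPM (expansion) or TPM-like units (day 4). Points are libraries and bars are mean ± SD of 3. Among the day-4 libraries, those of FL are highest for CDKN1B, CDKN2C and CDKN2D and lowest for CDKN1A, CDKN1C and CDK4, while CDKN1C in expansion is below 1 in all FL libraries and at 19.8 or more in all GATA1s libraries.

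CDKN1A (ENSG00000124762.13, chr6:36676460-36687339, plus strand, hg38) encodes p21, the CIP/KIP inhibitor best known as a p53 target. It was the most abundant of the 5 inhibitor transcripts in every library, and it was higher in both GATA1s clones in both conditions. At day 4 its level was 949, 998 and 938 in the 1D5 libraries and 1013, 1016 and 935 in the 1KI9 libraries, against 319, 327 and 304 in the FL libraries. The clones lay about level with each other, and every GATA1s library lay far above every FL library. The log2 difference was 1.60 (SE 0.16) in 1D5 and 1.64 (SE 0.16) in 1KI9, a ratio of mean levels of 3.04 and 3.12, with adjusted p of 1.07e-07 and 5.80e-08 from limma.

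In expansion CDKN1A stood at 131, 72.6 and 95.3 TPM in 1D5 and at 356, 299 and 287 TPM in 1KI9, against 57.7, 60.2 and 38.5 TPM in FL. The groups did not overlap, and 1KI9 stood far above 1D5. The log2 difference from FL was 0.91 (SE 0.16, adjusted p = 0.000346) in 1D5 and 2.59 (SE 0.16, adjusted p = 2.34e-10) in 1KI9. The clones differed from each other by 1.68 (SE 0.16, limma adjusted p = 2.73e-07), 1KI9 over 1D5, in expansion, but by 0.04 (SE 0.16, adjusted p = 0.898, 95% interval -0.31 to 0.38) at day 4. A fit restricted to the libraries compared left the 1D5 difference in expansion uncalled.

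Among markers of monocytes and neutrophils, CD68, a lysosomal protein, moved alongside CDKN1A, while LYZ, lysozyme, and TYROBP did so only in part. Of 8 such markers 5 were measured, and CD14, FCGR3A and MPO have no entry among the 13358 genes of the table. Their summed level was 329 to 350 in 1D5 and 395 to 418 in 1KI9, against 43.4 to 46.9 in FL, at day 4, and 32.8 to 46.5 in 1D5 and 178 to 228 in 1KI9, against 7.46 to 36.8 in FL, in expansion. The sums of 1D5 and FL overlapped in expansion. CD68 made up most of the sum in every GATA1s library and every day-4 FL library. LYZ made up most of it in 2 of the 3 FL expansion libraries. At day 4 LYZ was 5.36 to 7.02 in 1D5 and 16.93 to 18.05 in 1KI9, against 2.53 to 3.48 in FL. In expansion it was 4.09 to 7.64 TPM in 1D5 and 29.85 to 38.02 TPM in 1KI9, against 3.1 to 31.32 TPM in FL. In 1KI9 LYZ was lower at day 4 than in expansion, opposite to CDKN1A. TYROBP was 1.11 to 1.81 in 1D5 and 8.47 to 10.52 in 1KI9 at day 4. In expansion it was 0.63 to 1.71 TPM in 1D5 and 8.26 to 9.89 TPM in 1KI9, against 0.08 to 0.15 TPM in FL. Its levels in the GATA1s clones were thus above FL in both conditions, as for CDKN1A. Unlike CDKN1A, it overlapped between conditions in both GATA1s clones and was lower at day 4 in FL. CSF1R and ELANE were listed at 0 in all FL expansion libraries and CSF1R and TYROBP in all FL day-4 libraries. Mast cell markers (3 of 4 measured) were at lower levels, with a sum of 19.2 to 21.4 in 1D5 and 28.7 to 30.7 in 1KI9, against 10.0 to 10.5 in FL, at day 4, and 0.91 to 1.63 in 1D5 and 6.92 to 10.37 in 1KI9, against 0.88 to 1.12 in FL, in expansion, where 1KI9 stood apart as it did for CDKN1A. MS4A2, a defining mast cell gene, was listed at 0 in all day-4 libraries. It is 1 of the 312 genes listed with no symbol, all at 0 at day 4, so that 0 cannot be read as a level. Sums of the measured megakaryocyte and stromal markers reached at most 2.88 and 3.56 in any library. The part of these markers in the CDKN1A difference was not tested. In bulk RNA, a larger share of cells that express a gene and more RNA per cell cannot be told apart.

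CDKN1C (ENSG00000129757.13, chr11:2883213-2885773, minus strand) encodes p57, the imprinted CIP/KIP inhibitor that in mice keeps blood stem cells quiescent. In expansion it showed a greater difference from FL than any other member in both GATA1s clones, and it was higher in them at day 4 too. In expansion its level was 33.7, 62.9 and 41.1 TPM in 1D5 and 20.1, 27.3 and 19.8 TPM in 1KI9, against 0.86, 0.71 and 0.40 TPM in FL. All FL libraries were below 1 TPM, and no group overlapped another. The ratio of mean levels to FL was 69.9 for 1D5 and 34.1 for 1KI9, and on the log2 scale the clones differed from FL by 4.79 (SE 0.17, limma adjusted p = 2.75e-13) and 3.82 (SE 0.17, adjusted p = 2.49e-12) in the same order. Between the clones, 1KI9 was lower than 1D5, with a difference of -0.97 (SE 0.17, adjusted p = 0.000215).

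At day 4 CDKN1C stood at 6.28, 6.17 and 5.02 in 1D5 and 4.33, 4.58 and 3.75 in 1KI9, against 1.80, 1.72 and 1.66 in FL. The gap to FL was narrower than in expansion, with mean levels 3.37 and 2.44 times that of FL. Both differences were called, at 1.32 (SE 0.17, limma adjusted p = 2.33e-06) in 1D5 and 0.93 (SE 0.17, adjusted p = 8.81e-05) in 1KI9.

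CDKN1B (ENSG00000111276.11, chr12:12715058-12722371, plus strand) encodes p27, the CIP/KIP inhibitor whose protein accumulates in cells that exit the cycle. At day 4 its transcript was lower in both GATA1s clones, opposite to CDKN1A, and in expansion no difference was detected. At day 4 it measured 17.2, 16.8 and 16.8 in 1D5 and 15.4, 14.6 and 15.1 in 1KI9, against 40.7, 41.1 and 41.2 in FL. The spread within each group was under 1 unit and no groups overlapped. It differed from FL by -1.22 (SE 0.06, limma adjusted p = 7.39e-12) in 1D5 and -1.39 (SE 0.06, adjusted p = 9.55e-13) in 1KI9.

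In expansion CDKN1B measured 19.4, 22.4 and 20.5 TPM in 1D5 and 20.9, 21.4 and 22.7 TPM in 1KI9, against 21.2, 23.2 and 21.2 TPM in FL. The 3 groups overlapped. Neither clone was called, with 95% intervals of the log2 difference of -0.20 to 0.06 for 1D5 (adjusted p = 0.400) and -0.14 to 0.11 for 1KI9 (limma adjusted p = 0.863). Median-of-ratios scaling gave -0.22 for 1KI9, which was called.

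CDKN2C and CDKN2D encode p18 and p19, the INK4 inhibitors of CDK4 and CDK6 known to rise in maturing red cell precursors. Both were lower in the GATA1s clones at day 4 and higher in them in expansion. CDKN2C (ENSG00000123080.12) lies at chr1:50960745-50974633 on the plus strand and CDKN2D (ENSG00000129355.6) at chr19:10566462-10569059 on the minus strand. Their promoters are printed because the pair moved together. The windows run from 250 bases before to 50 bases after a transcription start, 5′ to 3′, from RefSeq (GRCh38.p14). Capitals mark the match to the CACCC box, the element bound by erythroid KLF1, here searched as CCACACCC or CCACGCCC on both strands.

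CDKN2C promoter, chr1:50968456-50968755, plus strand: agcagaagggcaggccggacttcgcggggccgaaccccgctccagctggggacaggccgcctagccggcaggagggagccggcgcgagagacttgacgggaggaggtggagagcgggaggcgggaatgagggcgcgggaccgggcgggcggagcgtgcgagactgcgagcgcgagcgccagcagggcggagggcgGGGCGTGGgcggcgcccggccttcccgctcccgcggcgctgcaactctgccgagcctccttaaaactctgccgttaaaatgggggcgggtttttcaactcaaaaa

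CDKN2D promoter, chr19:10568930-10569229, minus strand: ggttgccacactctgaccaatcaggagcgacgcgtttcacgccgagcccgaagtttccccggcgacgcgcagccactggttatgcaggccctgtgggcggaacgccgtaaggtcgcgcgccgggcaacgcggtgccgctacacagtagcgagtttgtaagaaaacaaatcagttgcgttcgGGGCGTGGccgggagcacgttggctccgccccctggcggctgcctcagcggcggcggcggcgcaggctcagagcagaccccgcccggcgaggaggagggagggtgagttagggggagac

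The match reads GGGCGTGG in both, at -55 to -48 from the start in CDKN2C and at -69 to -62 in CDKN2D. RefSeq windows existed for 8 members, 13 in all, of which 3 belong to CDKN2C, and these 2 were the only windows with the element. It occurred in 8.05% of all 35116 promoter windows. An E-box (CACGTG) was found in 4 of the 13 windows, with 3 copies in that of CDK4, and in 7.26% of all windows. A GATA motif (AGATAA, allowing T as the first letter and G as the last) was found in 1 of the 13, that of CDK4, where it overlaps no E-box, and in 24.97% of all. No window held TTTCCCGC, TTTGGCGC, TTTCGCGC or TTTGCCGC, forms of the E2F motif found in 3.31% of all. These matches describe letters in a window and are not evidence of binding.

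At day 4 CDKN2C measured 22.3, 24.9 and 22.02 in 1D5 and 21.5, 20.4 and 17.98 in 1KI9, against 45.9, 44.0 and 44.0 in FL. CDKN2D was lower in level and likewise highest in FL, with 3.69, 4.10 and 3.54 in 1D5 and 4.12, 3.95 and 3.45 in 1KI9, against 8.76, 9.39 and 7.06 in FL. Every FL library exceeded every GATA1s library for both genes. The log2 difference of CDKN2C was -0.92 (SE 0.08, limma adjusted p = 1.03e-08) in 1D5 and -1.13 (SE 0.08, adjusted p = 4.86e-10) in 1KI9. That of CDKN2D was -0.97 (SE 0.11, adjusted p = 2.68e-07) and -0.95 (SE 0.11, adjusted p = 2.58e-07) in the same clones.

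In expansion the order turned over. CDKN2C measured 36.2, 40.5 and 40.0 TPM in 1D5 and 39.6, 41.3 and 42.0 TPM in 1KI9, against 23.9, 27.6 and 22.4 TPM in FL. CDKN2D measured 3.24, 3.41 and 2.93 TPM in 1D5 and 2.61, 3.18 and 2.96 TPM in 1KI9, against 1.66, 2.15 and 1.52 TPM in FL. The GATA1s libraries now lay above every FL library for both genes. The log2 difference of CDKN2C was 0.64 (SE 0.08, limma adjusted p = 5.19e-06) in 1D5 and 0.72 (SE 0.08, adjusted p = 3.80e-07) in 1KI9, and that of CDKN2D was 0.60 (SE 0.11, adjusted p = 0.000302) and 0.50 (SE 0.11, adjusted p = 0.000593). No difference between the clones was called for either gene, with 95% intervals of -0.09 to 0.24 for CDKN2C and -0.32 to 0.12 for CDKN2D, 1KI9 minus 1D5.

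Of the 8 erythroid markers, 7 were higher in every FL library than in every GATA1s library at day 4, as CDKN1B, CDKN2C and CDKN2D were. KIT, the SCF receptor of immature progenitors, went the other way, at 224 to 273 in 1D5 and 257 to 285 in 1KI9, against 69.1 to 73.1 in FL. The sum of all 8, almost entirely the gamma globin gene HBG2 at day 4, was 77788 to 91478 in 1D5 and 50183 to 55595 in 1KI9, against 146654 to 149670 in FL. In expansion it was 21028 to 32524 in 1D5 and 21506 to 25239 in 1KI9, against 20750 to 43986 in FL, so the groups overlapped there. The part of these markers in the day-4 differences was not tested.

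SKP2 (ENSG00000145604.15, chr5:36151989-36184319, plus strand) encodes the F-box subunit of the ubiquitin ligase that marks p27 for destruction. Condition separated its levels far more than genotype did. At day 4 it stood at 4.92, 4.47 and 5.27 in 1D5 and 7.14, 7.07 and 7.46 in 1KI9, against 4.83, 5.46 and 5.18 in FL. In expansion it stood at 86.0, 95.5 and 77.0 TPM in 1D5 and 64.3, 70.0 and 74.7 TPM in 1KI9, against 55.0, 70.8 and 67.6 TPM in FL. At day 4 1KI9 alone lay above FL, by 0.42 (SE 0.09, limma adjusted p = 0.000588), a call that median-of-ratios scaling ended at 0.09. 1D5 was not called there, at -0.07 (SE 0.09, limma adjusted p = 0.542), but the same scaling called it lower than FL, at -0.35. In expansion 1D5 lay above FL by 0.42 (SE 0.09, adjusted p = 0.00252), a call that a fit to the compared libraries alone ended. The difference of 1KI9 from 1D5 was 0.48 (SE 0.09, adjusted p = 0.00135) at day 4 and -0.30 (SE 0.09, limma adjusted p = 0.0170) in expansion. The expansion difference between clones was no longer called at -0.22 without 1D5 replicate 2 or -0.24 without 1KI9 replicate 1.

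CCND3 (ENSG00000112576.12, chr6:41934933-42050357, minus strand) and CCND2 (ENSG00000118971.8, chr12:4273772-4305350, plus strand) encode D-type cyclins, and loss of cyclin D3 in mice gives fewer and larger red cells. CCND3 made up at least 90.2% of the summed CCND2 and CCND3 level in every library. In expansion it stood at 215, 207 and 217 TPM in 1D5 and 218, 229 and 217 TPM in 1KI9, against 163, 188 and 140 TPM in FL. All GATA1s libraries were above all FL libraries, by 0.39 (SE 0.07, limma adjusted p = 0.000554) in 1D5 and 0.45 (SE 0.07, adjusted p = 4.96e-05) in 1KI9. The 1D5 call was lost in a fit to the compared libraries alone.

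At day 4 CCND3 stood at 324, 334 and 324 in 1D5 and 259, 265 and 240 in 1KI9, against 312, 304 and 302 in FL. FL lay between the clones. The difference from FL was 0.10 (SE 0.07, limma adjusted p = 0.249, 95% interval -0.06 to 0.25) in 1D5 and -0.27 (SE 0.07, adjusted p = 0.00317) in 1KI9, but its sign turned with the scaling, to -0.24 in 1D5 under median-of-ratios scaling and to 0.07 in 1KI9 when libraries were rescaled to a common sum. The difference between clones kept its sign under each scaling, at -0.36 (SE 0.07, adjusted p = 0.00192) for 1KI9 minus 1D5.

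CCND2 went the other way in expansion. It stood at 7.96, 6.62 and 5.05 TPM in 1D5 and 10.0, 11.2 and 11.5 TPM in 1KI9, against 12.6, 13.9 and 15.2 TPM in FL. The groups did not overlap, with 1D5 lowest. The log2 difference from FL was -0.996 (SE 0.12, limma adjusted p = 3.54e-06) in 1D5 and -0.32 (SE 0.12, adjusted p = 0.0258) in 1KI9, and 1KI9 exceeded 1D5 by 0.67 (SE 0.12, adjusted p = 0.000182). The 1KI9 call rested on single libraries, since it was lost at -0.32 without FL replicate 2, at -0.26 without FL replicate 3 and at -0.27 without 1KI9 replicate 1.

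At day 4 CCND2 stood at 3.84, 2.94 and 3.83 in 1D5 and 4.74, 4.40 and 4.72 in 1KI9, against 5.81, 5.39 and 5.73 in FL. All 6 GATA1s libraries were below the FL libraries. The difference was called in 1D5, at -0.56 (SE 0.12, limma adjusted p = 0.000399), but not in 1KI9, at -0.24 (SE 0.12, adjusted p = 0.0708, 95% interval -0.49 to 0.01). The 1KI9 value became 0.04 when libraries were rescaled to a common sum and -0.58, called, under median-of-ratios scaling. A readthrough gene model, AC008012.1, shares the CCND2 interval on the same strand at 0.549 at day 4 and 1.11 TPM in expansion, so reads could be split between them.

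CDK4 (ENSG00000135446.17, chr12:57747727-57756013, minus strand) encodes a partner kinase of these cyclins. At day 4 its level was 207, 231 and 209 in 1D5 and 274, 269 and 254 in 1KI9, against 154, 157 and 152 in FL. FL was lowest, 1KI9 highest, and no groups overlapped. The difference from FL was 0.48 (SE 0.07, limma adjusted p = 5.92e-06) in 1D5 and 0.78 (SE 0.07, adjusted p = 8.90e-09) in 1KI9, and median-of-ratios scaling gave 0.14 in 1D5, no longer called, and 0.39 in 1KI9. The clones differed by 0.30 (SE 0.07, adjusted p = 0.00406), 1KI9 over 1D5.

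In expansion CDK4 stood at 350, 365 and 351 TPM in 1D5 and 346, 381 and 396 TPM in 1KI9, against 293, 352 and 337 TPM in FL. The groups overlapped. 1D5 was not called, with a 95% interval of -0.02 to 0.26 (limma adjusted p = 0.183), and 1KI9 was called at 0.20 (SE 0.07, adjusted p = 0.0183). The 1KI9 call did not hold at 0.12 without FL replicate 1, at 0.18 without 1KI9 replicate 2 or at 0.15 without 1KI9 replicate 3, and median-of-ratios scaling gave -0.02. TSPAN31 and MARCH9 overlap CDK4 on the opposite strand, at 5.33 and 13.8 at day 4 and 2.90 and 5.85 TPM in expansion, and the sources used here do not give whether the counting used strand.

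CDK6 (ENSG00000105810.9, chr7:92604921-92836594, minus strand), the other INK4-sensitive kinase, was nearly absent from the table. It was listed at 0 in all day-4 libraries, but so were all 312 genes that the table lists with no symbol, so that 0 cannot be read as a level. In expansion it was listed at 0 in all 1D5 libraries and at 0.01, 0.05 and 0.01 TPM in 1KI9, against 0.05, 0.05 and 0.07 TPM in FL. No fold is given for it.

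The called members stood against a large background of change, above all at day 4. There both clones differed from FL in the same direction for 6 of 9 members, CDKN1A, CDKN1C and CDK4 upward and CDKN1B, CDKN2C and CDKN2D downward, while 51.2% of all genes tested were called higher and 14.3% lower. In numbers of genes that background was 5670 higher and 1585 lower, against 2928 higher and 3438 lower under median-of-ratios scaling and 7650 and 879 when libraries were rescaled to a common sum. The median log2 difference over all genes at day 4 (mean of both clones minus FL) was 0.29, and the members' median was -0.09. The same scaling moved the median of all genes to -0.01 and the members' split to 2 higher and 5 lower, with CDK4 leaving the higher calls and CCND2 and CCND3 joining the lower ones. Relative to that shift, CDKN1B, CDKN2C and CDKN2D kept differences of -1.66, -1.38 and -1.29 and CDKN1A and CDKN1C of 1.26 and 0.89 on the same scale.

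In expansion both clones were called in the same direction for 6 of 9 members, with CDKN1A, CDKN1C, CDKN2C, CDKN2D and CCND3 higher and CCND2 lower, against a background of 17.5% higher and 8.98% lower among all genes tested (1927 and 992 genes, or 1631 and 1711 under median-of-ratios scaling). The median over all genes was 0.06 and the members' median 0.42. Between the clones, 1KI9 against 1D5, 2 members were called higher and 2 lower in expansion (background 33.4% and 7.16%), and 2 higher and 1 lower at day 4 (background 12.5% and 6.69%). Over all genes the expansion background of 3690 higher and 791 lower became 2132 and 2854 under median-of-ratios scaling and 2967 and 1273 rescaled without globin and mitochondrially encoded genes, while the members' counts there stayed at 2 and 2. The day-4 background of 1381 higher and 742 lower became 1150 and 1119 under median-of-ratios scaling, which gave 2 members higher and 3 lower, and 2690 and 476 rescaled to a common sum. Each FL library serves both clone comparisons, so the clones are not independent of each other there.

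**Figure D2:**
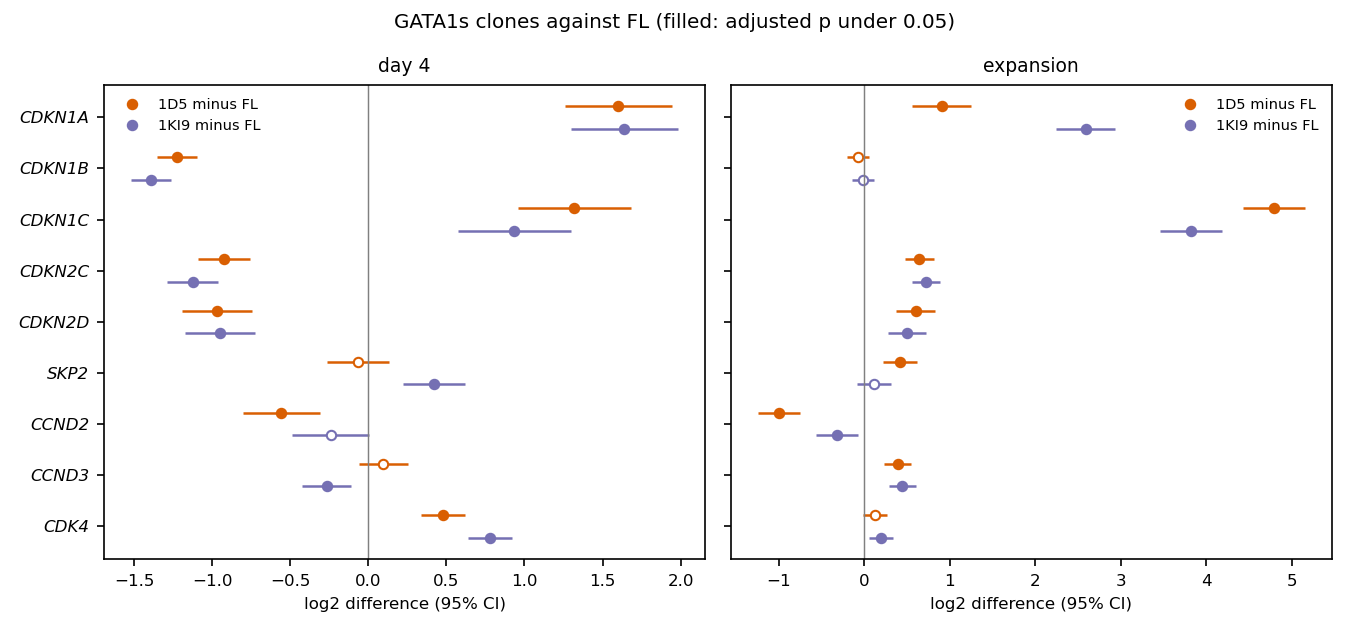
Log2 difference of each GATA1s clone from FL (x axes, with 95% intervals), at day 4 (left) and in expansion (right), for 9 members. Filled points passed an adjusted p of 0.05. CDKN1B, CDKN2C and CDKN2D lie left of 0 at day 4, where CDKN1A and CDKN1C lie right, whereas in expansion CDKN2C and CDKN2D lie right of 0 and CDKN1B lies at it.

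Each clone was next compared with itself between media. Both conditions differ in medium and time and were scaled separately, so these causes of a difference between day 4 and expansion cannot be told apart. SKP2 was lower at day 4, with a day 4 minus expansion difference of -3.88 in 1D5, -3.10 in 1KI9 and -3.40 in FL (SE 0.09 each). Its mean level in expansion was 17.6 times that at day 4 in 1D5, 9.65 times in 1KI9 and 12.5 times in FL. CDKN1A was higher at day 4 by 3.30 in 1D5, 1.65 in 1KI9 and 2.60 in FL (SE 0.16 each). CDK4 was lower at day 4, at -0.72 in 1D5, -0.49 in 1KI9 and -1.07 in FL (SE 0.07 each), and so was CCND2, at -0.72 in 1D5, -1.08 in 1KI9 and -1.16 in FL (SE 0.12 each). CCND3 was higher at day 4 by 0.62 in 1D5, 0.20 in 1KI9 and 0.91 in FL (SE 0.07). All of these passed limma at adjusted p of 0.0211 or below. The call of CCND3 in 1KI9 was lost at 0.19 without expansion replicate 1, at 0.19 without expansion replicate 3, at 0.19 without day-4 replicate 1 and at 0.17 without day-4 replicate 2.

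The clones parted for the other inhibitors. CDKN1B was lower at day 4 in the GATA1s clones, at -0.28 in 1D5 and -0.50 in 1KI9, but higher by 0.88 in FL (SE 0.06 each). The 1D5 call was lost at -0.11 under median-of-ratios scaling and at 0.02 rescaled without globin and mitochondrially encoded genes. CDKN2C was at -0.73 in 1D5 and -1.01 in 1KI9, lower at day 4, and at 0.84 in FL (SE 0.08 each). CDKN1C was likewise at -2.74 in 1D5 and -2.15 in 1KI9, and at 0.73 in FL (SE 0.17 each), the FL call being lost with a pseudocount of 5. CDKN2D was at 0.19 in 1D5 (adjusted p = 0.115, 95% interval -0.04 to 0.41), which each other scaling called, at 0.32 by median of ratios, 0.25 rescaled to a common sum and 0.46 rescaled without globin and mitochondrially encoded genes, and at 0.31 in 1KI9 (limma adjusted p = 0.0152), against 1.76 in FL (SE 0.11 each). Of the 9 members 2 were called higher and 6 lower in 1D5 (background 31.9% and 47.0% of genes tested), 3 higher and 6 lower in 1KI9 (22.2% and 52.2%), and 6 higher and 3 lower in FL (26.5% and 57.2%). Median-of-ratios scaling gave 3 higher and 5 lower in 1D5, and over all genes it gave 4368 higher and 4384 lower in 1D5, 4133 and 3923 in 1KI9 and 4612 and 4437 in FL. Rescaled without globin and mitochondrially encoded genes, all genes split into 4956 higher and 3719 lower in 1D5, 4437 and 3468 in 1KI9 and 4229 and 4726 in FL, and rescaled to a common sum into 3225 and 4584 in 1KI9. The 1KI9 call of CDKN2D was lost at 0.25 without expansion replicate 1 and at 0.26 without day-4 replicate 1.

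The difference between these changes was tested as an interaction, the GATA1s minus FL difference at day 4 minus the same difference in expansion. It was called for 6 of 9 members, 1 above 0 and 5 below, against 45.4% of genes tested above and 19.7% below, with a median over all genes of 0.21. That background of 4996 above and 2174 below became 3415 and 3371 (median 0.01) under median-of-ratios scaling, when 1 member was above and 6 below, and 7120 and 1287 (median 0.46) rescaled to a common sum, when 2 were above and 5 below. CDKN1C had -3.17 (SE 0.21, limma adjusted p = 1.44e-09), CDKN2C -1.71 (SE 0.10, adjusted p = 2.28e-10), CDKN2D -1.51 (SE 0.13, adjusted p = 3.16e-08) and CDKN1B -1.27 (SE 0.07, adjusted p = 3.39e-10). CCND3 had -0.50 (SE 0.09, adjusted p = 0.000105) and CDK4 0.47 (SE 0.08, adjusted p = 8.85e-05). In 1D5 CCND3 had -0.29 (SE 0.10, limma adjusted p = 0.0225), uncalled at -0.05 rescaled to a common sum and at -0.19 without FL expansion replicate 3. In the same clone CDK4 had 0.35 (SE 0.10, adjusted p = 0.00414), uncalled at 0.05 under median-of-ratios scaling. In 1KI9 CCND3 had -0.71 (SE 0.10) and CDK4 0.58 (SE 0.10). For CDKN1A the clones lay on opposite sides of 0, at 0.69 (SE 0.23, limma adjusted p = 0.0157) in 1D5 and -0.95 (SE 0.23, adjusted p = 0.00172) in 1KI9, so that their mean was -0.13 (adjusted p = 0.588, 95% interval -0.55 to 0.29). The 1D5 value was 0.39 and uncalled under median-of-ratios scaling. SKP2 was also on opposite sides of 0, at -0.48 (SE 0.13, limma adjusted p = 0.00501) in 1D5 and 0.30 (SE 0.13, adjusted p = 0.0566) in 1KI9, with a mean of -0.09 (95% interval -0.33 to 0.15) that was not called. Rescaled to a common sum, its 1D5 value was -0.28 and uncalled and its 1KI9 value 0.60 and called, as was the 1KI9 value of 0.36 with a pseudocount of 0.1, 0.31 rescaled without globin and mitochondrially encoded genes, 0.41 without FL expansion replicate 1 and 0.35 without 1KI9 expansion replicate 3, and median-of-ratios scaling called the mean at -0.28. CCND2 was called in 1D5, at 0.44 (SE 0.17, limma adjusted p = 0.0305), and not in 1KI9, at 0.08 (95% interval -0.27 to 0.43), or in the mean, at 0.26 (95% interval -0.04 to 0.56). Its 1D5 call was lost at 0.17 under median-of-ratios scaling, at 0.35 rescaled without globin and mitochondrially encoded genes, at 0.43 with a pseudocount of 0.1, in a fit to the compared libraries alone, and at 0.29 to 0.41 without expansion replicate 3 of FL or of 1D5, day-4 replicate 2 of FL, or day-4 replicate 1 or 3 of 1D5, while its mean was called at 0.50 rescaled to a common sum, at 0.25 with a pseudocount of 5 and at 0.33 without 1D5 expansion replicate 1.

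**Figure D3:**
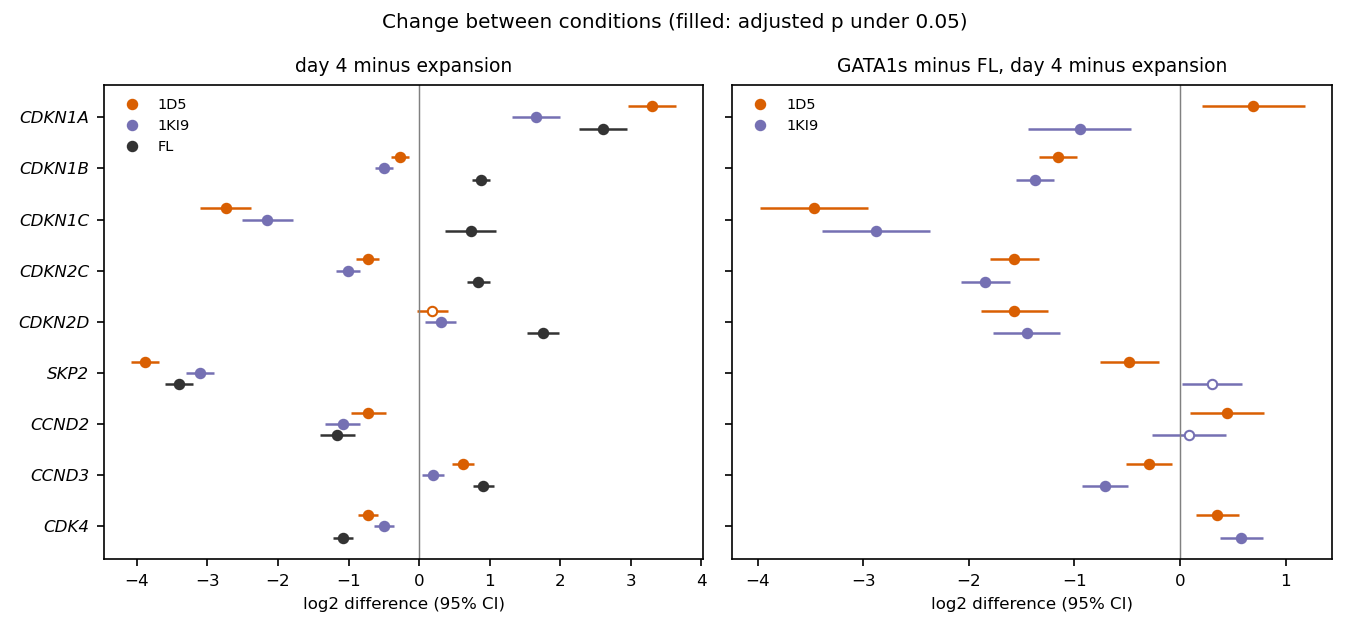
Left, log2 difference of day 4 from expansion within 1D5, 1KI9 and FL. Right, the interaction for each GATA1s clone. Lines are 95% intervals and filled points passed an adjusted p of 0.05. On the left, FL lies right of 0 for CDKN1B, CDKN1C and CDKN2C, where both GATA1s clones lie left, and all clones lie near -3 to -4 for SKP2.

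Ratios within a library do not change when 1 factor scales the whole library. The sources used here do not give whether that holds at day 4. The ratios are given as values with no test. Since CDK6 was listed at 0 at day 4 and at 0.07 TPM or less in expansion, the kinase sum was CDK4 alone at day 4 and almost entirely CDK4 in expansion. The summed CIP/KIP level over the summed CDK4 and CDK6 level was 4.57 ± 0.147 in 1D5 and 3.79 ± 0.0449 in 1KI9, against 2.32 ± 0.0425 in FL, at day 4 (SD, n = 3 each). In expansion it was 0.469 ± 0.05 in 1D5 and 0.965 ± 0.164 in 1KI9, against 0.230 ± 0.0478 in FL. The GATA1s libraries lay above the FL libraries in both conditions, and in every clone the day-4 libraries lay above the expansion libraries.

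The INK4 sum over the same kinases ran differently. It was 0.1245 ± 0.0017 in 1D5 and 0.0894 ± 0.0046 in 1KI9, against 0.343 ± 0.0106 in FL, at day 4, and 0.1185 ± 0.0051 in 1D5 and 0.1174 ± 0.0042 in 1KI9, against 0.0809 ± 0.0088 in FL, in expansion. FL was therefore the highest at day 4 and the lowest in expansion, with no overlap of GATA1s and FL libraries in either. The D-type cyclin sum over kinases was 1.54 ± 0.0701 in 1D5 and 0.975 ± 0.0212 in 1KI9, against 2.02 ± 0.0487 in FL, at day 4, and overlapped between groups in expansion.

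The make-up of the CIP/KIP pool also differed. CDKN1A supplied 97.7% of it in 1D5 and 98.1% in 1KI9, against 88.1% in FL, at day 4, when CDKN1B supplied 1.72% in 1D5 and 1.49% in 1KI9, against 11.4% in FL. In expansion CDKN1C supplied 28.1% ± 10.9 in 1D5 and 6.30% ± 1.42 in 1KI9, against 0.863% ± 0.207 in FL, and CDKN1A 59.3% ± 12.6 in 1D5 and 87.6% ± 1.89 in 1KI9, against 69.3% ± 4.57 in FL. The ratio of CDKN1B to SKP2, the inhibitor and the gene for its ligase subunit, was 3.49 ± 0.286 in 1D5 and 2.08 ± 0.0691 in 1KI9, against 7.97 ± 0.450 in FL, at day 4. In expansion it was 0.242 ± 0.0215 in 1D5 and 0.311 ± 0.0115 in 1KI9, against 0.342 ± 0.038 in FL, where 1KI9 and FL overlapped.

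**Figure D4:**
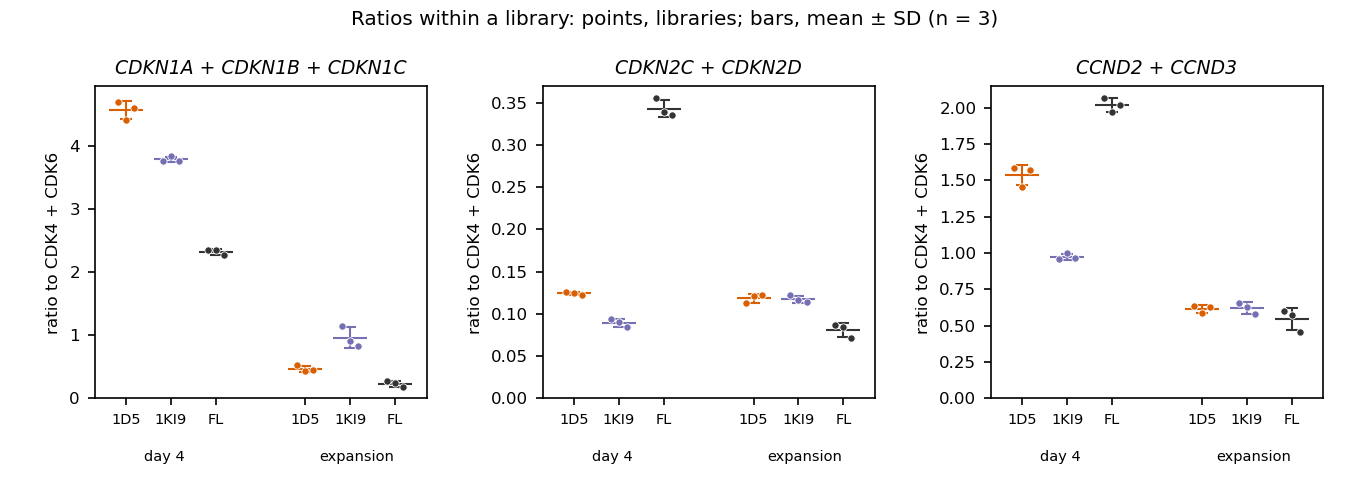
Ratio of summed CIP/KIP (left), INK4 (middle) and D-type cyclin (right) levels to CDK4 plus CDK6 in each library, with CDK6 listed at 0 at day 4. Points are libraries and bars are mean ± SD of 3. The FL libraries are lowest in the left panel in both conditions, and in the middle panel they are highest at day 4 and lowest in expansion.

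Genes with the profile most like that of a member were sought among 8565 genes with a mean level of at least 5, by the root mean square difference of centred log2 profiles over the 18 libraries. The nearest were C6orf203 to CDK4 (0.0669), RAB11FIP1 to CDKN1B (0.114), ATXN7L3 to CCND3 (0.131), GUK1 to CDKN2D (0.140) and MSRB1 to CDKN2C (0.181). Distances were greater for ERCC8 to SKP2 (0.234), CHML to CCND2 (0.234) and P2RX1, a purinergic receptor, to CDKN1A (0.258). The distance was greatest for CDKN1C, whose nearest gene, ACPP, differed by 0.773. Members whose own log2 profile has a wide range can have greater distances, so the distances do not rank the matches across members. That range was 4.14 for SKP2, 4.69 for CDKN1A and 5.51 for CDKN1C, against 1.25 to 2.04 for the others. The next nearest were RAB5C (0.0823), CMAS (0.123), PBX2 (0.133), FKBP8 (0.157), SLC6A8 (0.203), NEFH (0.312), CEP135 (0.245), SERPINI1 (0.265) and GSTM4 (0.864), in the same order of members.

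Other genes of the pathway were read as lists. Of 30 other G1/S control genes, 2 were higher and 3 lower in both clones in expansion, where the background over all genes was 17.5% higher and 8.98% lower. The higher ones were CKS2, a small subunit of CDK complexes, at 0.44 (SE 0.08), and CCNH, the cyclin of the CDK-activating kinase, at 0.20 (SE 0.05). The lower ones were CDC25A, the phosphatase that activates CDK2, at -0.46 (SE 0.07), the E2F partner TFDP1 at -0.38 (SE 0.05) and cyclin A2 (CCNA2) at -0.38 (SE 0.07). No call of this list remained in a fit to the compared libraries alone, and the count of 5 became 2 without FL replicate 2 and 3 without 1D5 replicate 3.

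At day 4, 11 of these 30 genes were higher and 6 lower in both clones (background 51.2% and 14.3%), with a list median of 0.12 against 0.29 over all genes. The highest were the third D-type cyclin gene, CCND1, at 1.59 (SE 0.11), with means of 8.07 ± 0.614 in 1D5 and 9.40 ± 1.56 in 1KI9, against 2.21 ± 0.0777 in FL (SD, n = 3 each), and the repressor E2F5 at 1.04 (SE 0.06) and CKS2 at 1.03 (SE 0.08). The lowest were E2F2 at -2.02 (SE 0.08), with means of 6.75 ± 0.134 in 1D5 and 3.61 ± 0.183 in 1KI9, against 23.3 ± 0.242 in FL, AMBRA1, which directs D-type cyclins to degradation, at -0.89 (SE 0.08), and TFDP1 at -0.72 (SE 0.05). CCNH was also called higher and CCNA2 lower in both clones at day 4. Each difference given is that of the mean of both clones from FL. Median-of-ratios scaling changed the split to 5 higher and 14 lower at day 4 and to 1 higher and 6 lower in expansion.

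Of 15 tested transcription factors known to act on these inhibitors, 6 were higher and 7 lower in both clones at day 4 (background 51.2% and 14.3%), and 2 higher and 1 lower in expansion (17.5% and 8.98%). SMAD3, which carries TGF-beta signals, was higher at day 4 (1.84, SE 0.09) and in expansion (1.76, SE 0.09). RUNX1 (1.12, SE 0.09) and the MYC partner ZBTB17 (1.00, SE 0.07) were higher at day 4 and CEBPA, a myeloid factor, by 1.64 (SE 0.16) in expansion. FOXO3, a direct activator of CDKN1B, was lower at day 4, at -1.54 (SE 0.09), with means of 22.6 ± 2.71 in 1D5 and 17.98 ± 1.41 in 1KI9, against 60.5 ± 2.00 in FL (SD, n = 3 each). GFI1B at -1.09 (SE 0.08) and FOXO4 at -1.07 (SE 0.07) were lower at day 4, and MYC, a repressor of CDKN1A, was lower in expansion at -0.59 (SE 0.07), with means of 307 ± 36.8 TPM in 1D5 and 209.9 ± 12.5 TPM in 1KI9, against 383 ± 31.2 TPM in FL. MYC was called lower and CEBPA higher in both clones at day 4 too. Rescaling libraries to a common sum gave 7 higher and 5 lower at day 4. The list median was -0.22 at day 4 and 0.105 in expansion, against 0.29 and 0.06 over all genes.

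Among 24 proliferation genes, 2 were higher and 12 lower in both clones at day 4 (background 51.2% and 14.3%), and 1 higher and 5 lower in expansion (17.5% and 8.98%). GINS2 (0.31, SE 0.07) and MCM3 (0.24, SE 0.07), both of the replicative helicase, were higher at day 4, when MKI67 (-0.79, SE 0.10), CDC20 (-0.70, SE 0.09) and CCNB2 (-0.60, SE 0.07), which act in mitosis or mark cycling cells, were lower. In expansion BUB1, a spindle checkpoint kinase, was higher at 0.45 (SE 0.06), and RRM2 (-0.605, SE 0.09), MKI67 (-0.40, SE 0.10) and MCM2 (-0.39, SE 0.07) were lower. RRM2 was called lower in both clones at day 4 too. The list median was -0.21 at day 4 and -0.23 in expansion, against 0.29 and 0.06 over all genes. At day 4 median-of-ratios scaling gave 0 higher and 20 lower, and rescaling to a common sum 8 higher and 6 lower, so the balance of this list turned with the scaling. In expansion the count of 6 became 1 in a fit to the compared libraries alone, 10 without FL replicate 1 and 3 without 1D5 replicate 3.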

How the data were processed

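RNA-seq values of 18 HUDEP1 libraries were analysed, 3 in each of 6 groups given by the labels (genotype and condition). Per the submitters' processing notes, the tools were Trim Galore 0.60, STAR 2.7 and RSEM 1.31, and the build was hg38 (GRCh38.p12). The authors deposited expansion values as TPM. Their deposited day-4 values were treated as a TPM-like signal, since the FL libraries sum to more than TPM allows, and the sources used here do not give the scaling behind them. TPM had been planned for all libraries, and the log-scale test serves both. Depth per library is unknown, so no counting interval was computed.

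Of 13358 genes, 312 had no symbol and were named from the GENCODE annotation by identifier, CDK6 among them. Genes at 1 or more in at least 3 libraries were kept (11110), and a gene at 0 in all libraries of a condition (68 genes for expansion, 27 for day 4) was dropped from comparisons with it. Log2(value + 1) was fitted with limma 3.58.1 (R 4.3.3) on the means of 6 groups with trended variances, p-values were adjusted by Benjamini-Hochberg over all genes, and the threshold was 0.05. The fit was tested on simulated data with changes in both clones in expansion. Of 100 genes changed by 0.5 on the log2 scale 83% were recovered, and of 100 changed by 1.0, 100%. Among unchanged genes 0 were called. The simulation held no shift in scale and no wide background of change, so it does not test the day-4 calls. Whether the day-4 scale is per length was checked, after the data were seen, by the slope of log2(day 4 / expansion) on the log2 median length of a gene's transcripts in the GENCODE annotation. The members and gene lists were chosen with earlier results of these data known. Tests planned for sums and ratios over members are not given, only the values. Besides all members, up to 3 genes per list, condition and direction with the greatest difference called in both clones are named, and the 2 genes nearest in profile to each member. Alternatives were pseudocounts of 0.1 and 5, no filter, 3 other scalings (median of ratios, a common sum, and that sum without globin and mitochondrially encoded genes), only the libraries compared, a replicate block, and leaving out each library. RSEM divides reads among similar transcripts, and processed pseudogenes of CCND2, CCND3 and CDK4 exist.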

Additional observations from a re-analysis of the deposited data

Results flagged for a closer look

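The difference between GATA1s and FL changed with condition for 6 members, by limma's interaction test (day 4 minus expansion, mean of both clones, adjusted over all genes). The interaction was -3.17 for CDKN1C, -1.71 for CDKN2C, -1.51 for CDKN2D, -1.27 for CDKN1B, -0.50 for CCND3 and 0.47 for CDK4 on the log2 scale. Of these, CDKN2C and CDKN2D were lower in both clones than in FL at day 4 and higher in both in expansion. In 1D5 alone, the call of CDK4 was lost under median-of-ratios scaling and that of CCND3 was lost rescaled to a common sum.

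The 2 GATA1s clones differed from each other, and hence in their difference from the same FL libraries. In expansion, 1KI9 minus 1D5 was 1.68 for CDKN1A, 0.67 for CCND2, -0.97 for CDKN1C and -0.30 for SKP2. At day 4 it was 0.48 for SKP2, 0.30 for CDK4 and -0.36 for CCND3.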

How the results depend on the processing

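Over 999 fits of a member's difference under another setting, 927 kept their sign and side of the threshold, 33 passed only there, 21 passed only in the reported fit and 18 turned sign. Of the 18, 5 passed in 1 of the fits: CCND3 at day 4 in 1D5 minus FL (-0.24, median-of-ratios scaling), in 1KI9 minus FL (0.073, rescaled to a common sum) and in the mean of both clones (0.21, rescaled to a common sum), CDK4 in 1KI9 minus FL in expansion (-0.018, median-of-ratios scaling), and CDKN1B day 4 minus expansion in 1D5 (0.017, rescaled without globin and mitochondrially encoded genes). The other 13 passed in neither fit. Under median-of-ratios scaling, 1KI9 minus 1D5 became -0.016 for CDKN1A and -0.025 for CDKN2D at day 4 and -0.115 for CDKN1B, -0.104 for CDKN2C, -0.125 for CCND3 and -0.108 for CDK4 in expansion, SKP2 became -0.095 in 1KI9 minus FL in expansion and -0.133 in the mean of both clones minus FL at day 4, and the CCND2 interaction in 1KI9 became -0.064. Rescaled to a common sum, the mean interaction became 0.162 for CDKN1A and 0.160 for SKP2, and the day-4 difference from FL became 0.140 for SKP2 in 1D5 and 0.044 for CCND2 in 1KI9. The day-4 balance depends most on scaling, because the median difference over all genes was 0.29 as reported, -0.01 under median-of-ratios scaling and 0.55 rescaled to a common sum. With library by library omission, 991 of 1026 fits kept sign and call and 6 turned sign, none of them past the threshold. Those 6 belong to the mean interactions of CDKN1A (range -0.244 to 0.072) and SKP2 (-0.160 to 0.019), CDKN1B in 1KI9 minus FL in expansion (-0.046 to 0.027) and CDKN2D in 1KI9 minus 1D5 at day 4 (-0.024 to 0.078).

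The count of members called between the clones at day 4 was 3, and it was 5 under median-of-ratios scaling, 5 rescaled without globin and mitochondrially encoded genes and 5 with only the libraries compared. With only the libraries compared, the expansion counts of other G1/S control genes and of proliferation genes were 0 and 1, against 5 and 6, a fit with fewer libraries to estimate the spread. Leaving out 1 library gave 5 to 6 members called in both clones in expansion and 6 to 6 at day 4, 3 to 4 between clones in expansion and 3 to 3 at day 4, 9 to 9 between conditions in FL, 8 to 8 in 1D5 and 7 to 9 in 1KI9, and 6 to 7 for the interaction. For the lists it gave 2 to 7 other G1/S genes in expansion and 16 to 18 at day 4, 3 to 3 and 11 to 13 regulators, and 3 to 10 and 13 to 15 proliferation genes, the low proliferation count of 3 being without 1D5 expansion replicate 3 and the high of 10 without FL expansion replicate 1.

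The labels number replicates 1 to 3 in every group. In 0 of 15 pairs of groups were all correlations of same-numbered samples' deviations above 0.1 (range -0.15 to 0.43), so the numbers were not taken as pairs. As a hint from the data and not the design, in 47 of 90 comparisons of a library with another group the correlation was best with its own number. Each comparison had 3 numbers to choose from. Whether same-numbered libraries share structure was not tested further. With the replicate number as a block the counts of members were 6 in both clones in expansion, 6 at day 4, 4 and 3 between clones, and 9, 8 and 9 between conditions in FL, 1D5 and 1KI9. Unknown depth limits CDKN2D, CCND2, CDKN1C in FL and day-4 SKP2, all at low levels.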
